A study of Mus musculus with 8 samples.

Results

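Genes of 11 chromatin regulator name families were followed through m6A peak lists of mouse gastrocnemius, a calf muscle. A gene was taken as a member if its listed name began with Kdm, Setd, Chd, Smarc, Arid, Brd, Phf, Kat, Asxl, Ing or Nsd, followed by a digit or a letter from a to e, and if it held a peak in at least 1 list. That rule found 58 of the 5987 gene names with a peak, and the remaining 5929 names served as the comparison. All 58 names were RefSeq symbols. The families hold histone demethylases, methyltransferases, acetyltransferases, ATP-dependent remodellers and their accessory subunits, and readers of modified histones. The family name does not fix the function of every member: Setd3 methylates actin and Setd6 a signalling factor, not mainly histones.

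The muscles came from 10-week-old male C57BL/6 mice and were either denervated, with the muscle taken 14 days later, or innervated, taken from the opposite leg and labelled untreated. Each group had 2 libraries of RNA captured with an antibody against N6-methyladenosine (IP libraries), and each was called against an input library of its own. How the nerve was interrupted is not stated in the labels, and the labels do not say that the replicate numbers mark separate animals. Spreads between libraries may therefore be technical.

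N6-methyladenosine, or m6A, is a methyl mark that a methyltransferase complex places on adenosines of messenger RNA within a short consensus, most densely in long internal exons and around stop codons. Reader proteins bind the mark and alter the stability, splicing or translation of the transcript. The proteins described here work at another level: remodellers slide or evict nucleosomes, demethylases and methyltransferases set the marks on histone tails, and bromodomain and PHD finger proteins read acetylated or methylated tails. In muscle, loss of the nerve is known to change transcription through histone-modifying enzymes such as class IIa deacetylases.

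Between 9327 and 10300 peaks were listed per library. Read counts were not analysed here, so depth is unknown and a missing peak does not show that a transcript was unmethylated. Of 15 muscle fibre marker genes, among them Acta1, Ckm and Myh1, 0 carried a peak in any list, while fibroblast markers had 4 of 6, endothelial markers 4 of 5, satellite cell markers 2 of 4, and macrophage, Schwann cell and adipocyte markers 1 each. Of these 45 markers 13 carried a peak, and 0 of the 13 were held by both lists of 1 group and by neither list of the other. Among the 5929 comparison names 3.42% were held in this way in denervated and 3.17% in innervated muscle. With 13 genes the 0 therefore gives no result about the cells present. In bulk muscle, fewer cells of a type and less RNA per cell cannot be told apart, and the part of either in the calls below was not tested.

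Most of the chromatin regulator genes were called whether or not the nerve was present. Of the 58 genes, 32 held a peak in all 4 libraries (55.2%, 95% Wilson interval 42.5 to 67.3%), 12 in 3 libraries, 8 in 2 and 6 in 1. Among the other genes 2892 of 5929, or 48.8%, were called in all 4 libraries, so the interval of the members covers the background share. At the lower end 10.3% of the members and 19.7% of the other genes stood in 1 library. The members' share rests on 6 genes and no interval was computed for it, so it gives no result about the members. Only Arid3a and Kdm3a were denervated only, that is, held by both denervated lists and by neither innervated list. These 2 genes are 3.45% of the members (Wilson interval 0.951 to 11.7%), beside a background of 3.42%. Innervated only, the opposite case, were 0 of 58 (Wilson interval 0 to 6.21%), beside a background of 3.17%. Both shares lie near the background or include it, so they give no result about the members.

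The number of members called per library was 44 and 49 in innervated and 50 and 43 in denervated muscle. The group means were 46.5 ± 3.54 and 46.5 ± 4.95 (SD, n = 2), with a two-sided exact permutation p of 1. With 2 libraries against 2 the smallest p that this test can give is 0.333, so no comparison of groups here can pass a threshold of 0.05. The lowest and the highest library both belonged to denervated muscle. In each library the share of members with a peak (75.9, 84.5, 86.2 and 74.1%) stood above the share of the other genes (69.3, 77.6, 76.8 and 70.7% in the same order), and innervated 2 and denervated 1 were the higher libraries in both sets.

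**Figure D1:**
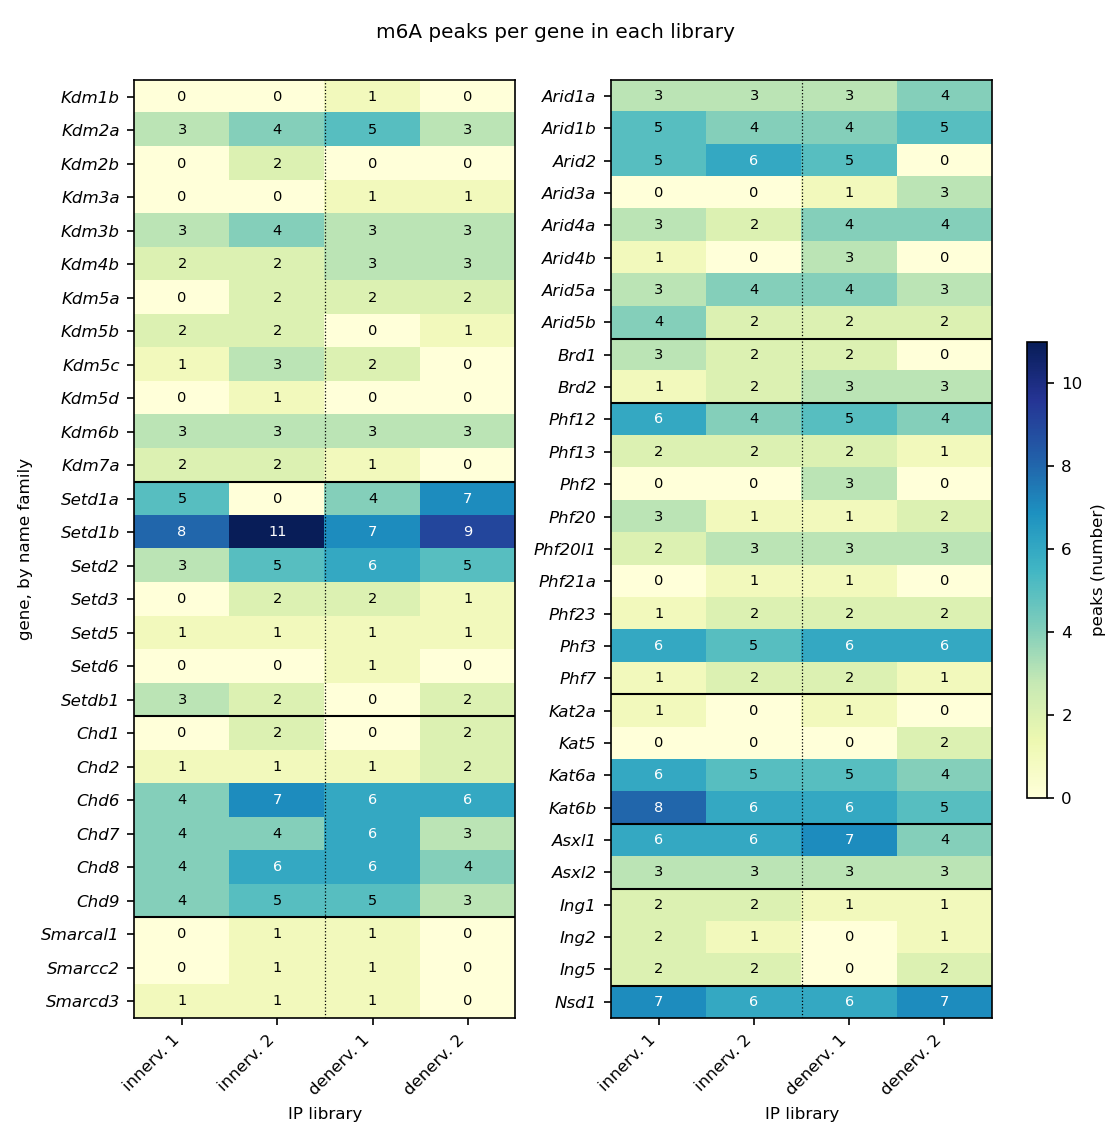
Number of m6A peaks in 57 of the 58 genes (rows, by name family, families divided by lines) in the 2 innervated and 2 denervated IP libraries (columns, divided by a dotted line). Colour and printed digit both give the number of peaks; Setd1b reaches 11, the highest count, and most rows are alike on both sides of the dotted line.

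Called members carried more peaks each than other called genes. The mean was 3.27, 3.10, 3.22 and 3.16 peaks per called member in innervated 1, innervated 2, denervated 1 and denervated 2, against 2.23, 2.21, 2.12 and 2.23 for other genes. Members were above other genes in all 4 libraries, while the 2 groups hardly differed. The group means of the members were 3.19 ± 0.121 and 3.19 ± 0.0405 (SD, n = 2; exact permutation p = 1). When the peaks of all lists that shared at least 1 base on a strand were joined into regions, the members made 174 regions, a mean of 3 per gene against 2.19. At least 3 regions were held by 28 members (48.3%) and by 1722 other genes (29.0%). At least 3 regions called in all 4 libraries were held by 13 members (22.4%) and by 338 other genes (5.70%).

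Members are also longer genes. Their median span, introns included, was 69340 bases, against 25058 bases for other genes, and 38 of the 58 fell in the longest of 3 classes that split all spans by length into equal numbers of genes. Within that class the members averaged 3.34 regions and the other genes 2.56, and 63.2% against 48.7% were called in all 4 libraries. In the middle class members had 2.91 regions against 2.10, but 3 of 11 (27.3%) against 47.6% were called in all 4 libraries. In the shortest class the 9 members had 1.67 regions against 1.91. The larger number of regions per gene thus held in the longest and the middle class and not in the shortest, and the higher recurrence did not hold in the middle class. Lengths of the mature transcripts were not used here.

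**Figure D2:**
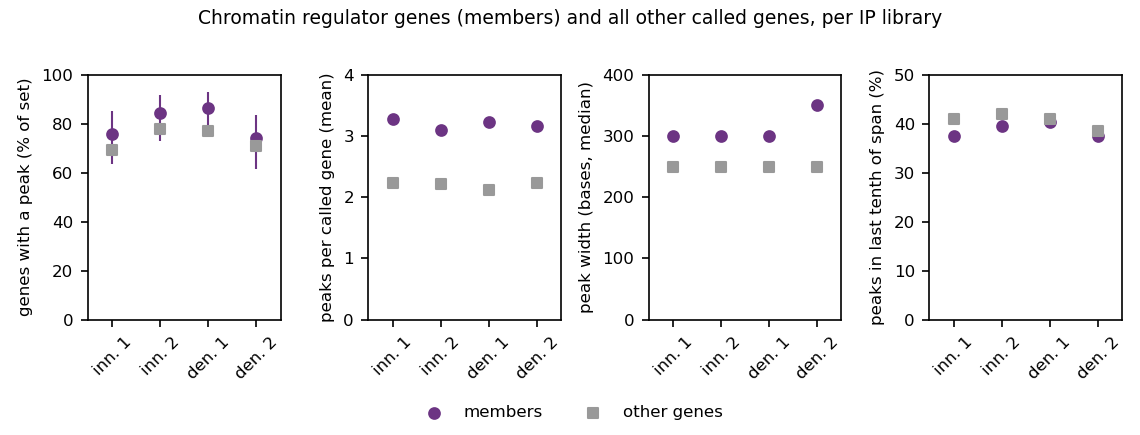
Values of the 58 chromatin regulator genes (circles) and of the 5929 other genes (squares) in each IP library: share of the set with a peak (%, bars are 95% Wilson intervals of each set), mean peaks per called gene, median peak width (bases) and share of peaks in the last 10% of the gene span (%). The circles lie above the squares in every library in the first 3 panels and below them in the last.

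Histone demethylases named Kdm remove methyl groups from histone lysines, and 12 of the 18 protein-coding Kdm genes in RefSeq carried a peak. The 4 called in all 4 libraries were Kdm2a and Kdm4b, which act on methylated lysines of gene bodies or heterochromatin, Kdm3b, which removes the heterochromatin mark, and Kdm6b (also JMJD3), which removes the repressive Polycomb mark. Kdm6b held 3 peaks in each of the 4 libraries. Its widest region, chr11:69402212-69405452 on the minus strand of mm10, was spliced and covered 1351 and 1301 bases in innervated and 1500 and 1600 bases in denervated libraries. The denervated values lay above the innervated ones without overlap, in a region whose width is set by where each list's peaks began and ended. How many regions of members or of other genes separated the groups in this way was not counted, so this is a description. Kdm3b held 3, 4, 3 and 3 peaks, all of them near the middle of the gene span, and its 3 regions were all called in all 4 libraries. Kdm2a had 3, 4, 5 and 3 peaks and Kdm4b 2, 2, 3 and 3.

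The Kdm5 genes encode demethylases of the promoter mark of active genes, and 0 of their 4 members were called throughout. Kdm5a was missed in innervated 1 and Kdm5b in denervated 1. Kdm5c was missed in denervated 2, where innervated 1, innervated 2 and denervated 1 had 1, 3 and 2 peaks. Kdm5d had 1 peak in innervated 2 alone; it is the Y-linked and Kdm5c the X-linked copy of a closely similar pair, so their calls are uncertain where reads fit both. Kdm7a, a demethylase of repressive marks, was missed in denervated 2. Kdm2b, which brings a Polycomb complex to CpG islands, had 2 peaks in innervated 2, and Kdm1b, a flavin-dependent demethylase, had 1 peak in denervated 1. No peak was listed for Kdm1a, Kdm4a, Kdm4c, Kdm4d, Kdm6a and Kdm8.

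Kdm3a, an oxygen-dependent demethylase of the heterochromatin mark and a partner of nuclear receptors, was 1 of the 2 genes called in denervated muscle only. It held 0 and 0 peaks in innervated and 1 and 1 in denervated libraries. They met in a single region, chr6:71611628-71611877 on the minus strand, near the middle of the gene span (48.2% of the way from the 5′ end). The peak covered 100 bases in denervated 1 and 250 bases in denervated 2. The authors' score, read here as strong where small, put it at percentile 4.29 and 34.6 of its lists, both on the weaker side. With equal numbers of peaks per list Kdm3a was no longer denervated only. With the 50% of each list that had the smallest scores it also lost the call.

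Of the methyltransferases, 7 of 10 Setd genes and 1 of 3 Nsd genes carried peaks under these names. Setd1b, the catalytic subunit of a complex that sets the promoter mark of active genes, had the most peaks of all members, 8, 11, 7 and 9. Its 9 regions spread over the gene from 22.7 to 73.1% of the span, and 5 of them were called in all 4 libraries. The paralogue Setd1a had 5, 0, 4 and 7 peaks and was missed in innervated 2 alone. Setd2, which sets the mark of transcribed gene bodies, had 3, 5, 6 and 5 peaks. Setd5 had 1 peak in each library, in a region near the 3′ end that covered 548, 548, 697 and 548 bases. Setd3 was missed in innervated 1, Setdb1, which sets the heterochromatin mark, was missed in denervated 1, and Setd6 had 1 peak in denervated 1. Setd4, Setd7 and Setdb2 had no peak.

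Nsd1, a histone methyltransferase that is mutated in an overgrowth syndrome, had 7, 6, 6 and 7 peaks. Its 5 regions were all called in all 4 libraries, the highest number among the 10 members without a region of any other class. A region near the 5′ end lay at 3.71% of the span, an internal pair at 33.2 and 34.6%, and a pair near the 3′ end at 94.8 and 95.6%. The widest, chr13:55246615-55248063, covered 1051, 951, 851 and 1150 bases, and its ranges in the 2 groups overlapped. Nsd2 had no peak, and Nsd3 appeared under its older name Whsc1l1 with 2 peaks in denervated 1.

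Remodellers of the Chd family pair an ATPase with chromodomains that bind methylated histone tails, and 6 of 10 carried peaks. Chd6, Chd7, Chd8 and Chd9, which form a subfamily, and Chd2 were called in all 4 libraries, and Chd1 in innervated 2 and denervated 2. Chd6 had 4, 7, 6 and 6 peaks, Chd7 4, 4, 6 and 3, Chd8 4, 6, 6 and 4, and Chd9 4, 5, 5 and 3. Each of these ranges overlapped between the groups. Chd3 and Chd4, the ATPases of the NuRD complex, and Chd5 and Chd1l had no peak. Of the family's 86 peaks, pooled over the 4 lists, 54.7% lay in the last 10% of the span. Peaks of other genes had 38.4 to 41.9% there in single libraries. The 86 peaks came from 24 regions, so a site called in several lists counts more than once. The median place was 65.2% in Chd8 and 88.6% in Chd6, and from 90.8 to 96.8% in the other called Chd genes. The share is therefore a description.

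Chd7, which is mutated in CHARGE syndrome, held the single innervated-only region among the 174 regions of the members. That region, chr4:8752199-8752299 on the plus strand, covered 101 bases in each innervated library, at score percentiles 23.3 and 1.38. A region called in all 4 libraries started 297 bases further on and covered 350, 499, 400 and 400 bases. Chd8, an autism-associated remodeller that acts on Wnt targets, held a denervated-only spliced region, chr14:52232853-52235196 on the minus strand, with 101 and 151 bases. A region called in innervated 1, innervated 2 and denervated 1 lay 49 bases away. In both genes the group-only region was thus a short stretch beside a peak shared by the groups.

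The SWI/SNF remodeller complexes are built from ATPase, core and targeting subunits, and their genes fall under Smarc and Arid. Smarc genes were the least often called family: 3 of 13 had a peak, and 0 in all 4 libraries. Smarcc2, a core subunit, and Smarcal1, an annealing helicase outside the complex, each had 1 peak in innervated 2 and in denervated 1. Smarcd3, the muscle and heart subunit BAF60c, had 1 peak in innervated 1, innervated 2 and denervated 1 and none in denervated 2. The ATPases Smarca2 and Smarca4, and Smarca1, Smarca5, Smarcad1, Smarcb1, Smarcc1, Smarcd1, Smarcd2 and Smarce1 had no peak in any list.

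Arid genes encode DNA-binding proteins, among them the targeting subunits of SWI/SNF, and 8 of 10 carried peaks. Arid1a, the targeting subunit of the BAF form of the complex, had 3, 3, 3 and 4 peaks in 3 regions, all called in all 4 libraries. Its region chr4:133679905-133685034 on the minus strand covered 1945, 1945, 1845 and 2443 bases, together the longest covered stretch of any member region. Arid1b, its paralogue, had 5, 4, 4 and 5 peaks and regions at both ends of its span, the first at 0.389 and 6.83% and the others near the 3′ end. In the 5′ region, chr17:4995174-4996171 on the plus strand, 998 and 550 bases were covered in innervated and 350 and 450 bases in denervated libraries. The groups did not overlap there, which is a description only, as for Kdm6b. Arid5a and Arid5b were also called in all 4 libraries, and Arid3b and Arid3c had no peak.

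Arid2, the targeting subunit of the PBAF form, and Setd1a were the largest differences between libraries of 1 group. Arid2 had 5, 6 and 5 peaks in innervated 1, innervated 2 and denervated 1 and 0 in denervated 2. Members with at least 4 peaks in each of 3 lists and none in the fourth numbered 2 of 58 (3.45%), these 2 genes, against 38 of 5929 other genes (0.641%). The limit of 4 peaks was not among the planned comparisons. Members also carried more peaks per called gene, so they could reach it more often. The shares therefore do not show that members were missed more often. Of the 12 members missed in a single library, 5 were missed in denervated 2 (Arid2, Brd1, Kdm5c, Kdm7a and Smarcd3), 4 in denervated 1, 2 in innervated 1 and 1 in innervated 2. For other genes the same numbers were 320, 203, 308 and 147. A gene missed in 1 denervated library was not counted as changed with denervation.

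Arid3a, a DNA-binding factor of the Arid3 group known from B cells, was the other gene called in denervated muscle only. It held 0 and 0 peaks in innervated and 1 and 3 in denervated libraries. The region shared by the denervated lists, chr10:79930858-79931832 on the plus strand, was spliced and lay at 15.4% of the span. It covered 448 bases in denervated 1 and 351 bases in denervated 2, at score percentiles 33.4 and 34.0. A further region of 300 bases, 20052 bases away, was called in denervated 2 alone. Arid3a remained denervated only when each list was trimmed to the same number of peaks and lost the call with the 50% of each list that had the smallest scores. With the 50% that had the largest scores, both Arid3a and Kdm3a kept it.

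Arid4a, a partner of the retinoblastoma protein, was called in all 4 libraries with 3, 2, 4 and 4 peaks and held a denervated-only region, chr12:71086467-71086567 on the plus strand, of 101 bases in each denervated library. Its nearest neighbour, 10678 bases away, was called in all 4 libraries. Setd2 likewise held a denervated-only region, chr9:110548437-110548737 on the plus strand, of 201 and 301 bases. A region 649 bases away was called in 3 libraries and another, 1749 bases away, in all 4. Arid4b, the paralogue of Arid4a, had 1 peak in innervated 1 and 3 in denervated 1.

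Of the 174 regions, 77 were called in all 4 libraries (44.3%, Wilson interval 37.1 to 51.7%), against a background of 34.5% of 12942 regions of other genes. Denervated only were 5 (2.87%), against 3.68%, and innervated only was 1 (0.575%), against 4.25%. Regions of 1 library were 39 (22.4%), against 32.4%. Regions of 1 gene share a transcript, so these counts are not independent and the intervals cover counting error only. Regions called in all 4 libraries covered a median of 697 bases, those in 3 libraries 301, those in 2 libraries 250 and those in 1 library 150. For other genes the medians were 591, 347, 249 and 149 bases. These are bases covered by any of the lists that held the region, so part of the order is fixed by the number of lists. The 6 group-only regions covered 100 to 448 bases in each list that held them.

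Libraries of a group did not share more member regions than libraries of different groups. The innervated pair shared 65.8% of the regions held by either and the denervated pair 63.0%, while the cross pairs ranged from 62.3 to 67.5%. For other genes the innervated pair shared 59.5% and the denervated pair 56.3%, and the cross pairs ranged from 53.5 to 56.2%. Each library enters 3 of these pairs, so they are given as a description.

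**Figure D3:**
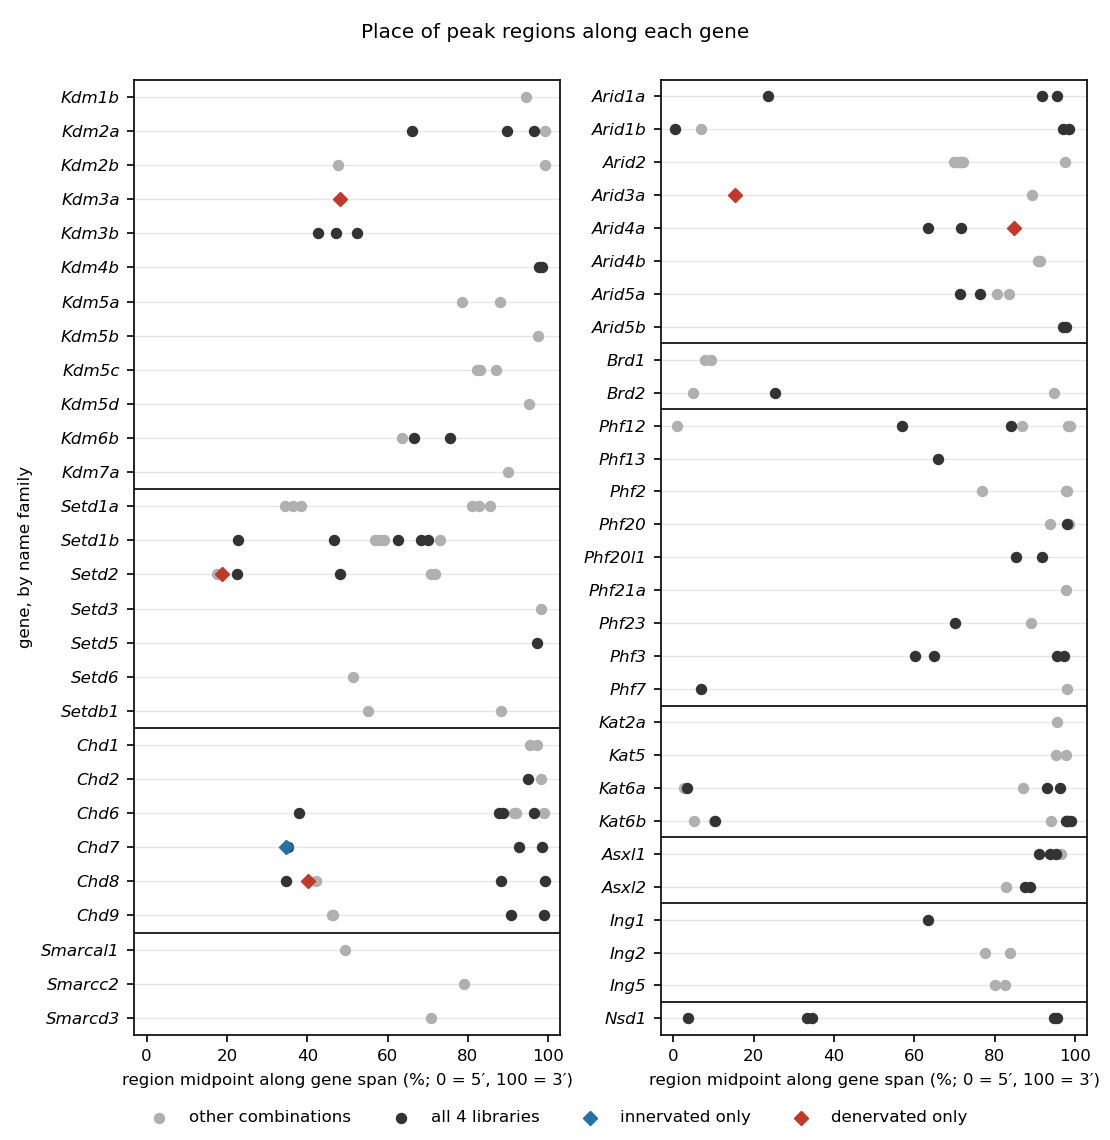
Midpoint of 168 of the 174 peak regions along the RefSeq span of its gene (x axis, %, 0 at the 5′ end and 100 at the 3′ end, introns included), with 1 row per gene. Dark circles are regions called in all 4 libraries, grey circles other combinations, red diamonds denervated only (5) and the blue diamond innervated only (1); most regions lie toward the right, with dark circles at the far left in Arid1b, Kat6a, Nsd1 and Phf7.

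Bromodomains bind acetylated lysines, and under the stem Brd 3 of 9 genes carried peaks. Brd2, a BET protein that couples acetylated chromatin to transcription, was called in all 4 libraries. It had 1, 2, 3 and 3 peaks, more in both denervated than in either innervated library. Most of them fell in a single spliced region, chr17:34118621-34121546 on the minus strand, which covered 1245 and 1245 bases in innervated and 1145 and 948 bases in denervated libraries. Both denervated libraries had fewer covered bases there than the innervated ones. How many genes or regions separated the groups in peaks or bases was not counted, so both differences are a description. The region held 1 and 2 peaks in innervated and 1 and 3 in denervated libraries. The other peaks of denervated 1 lay outside it and were single-library calls at percentiles 0.469 and 2.66. Brd1, a scaffold of acetyltransferase complexes, had 3, 2 and 2 peaks and none in denervated 2. The genes without a peak included Brd3, Brd7 and Brd9.

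The Brd2 region also spanned a transcription start that RefSeq (GRCm38.p6) places at 34119900, inside the gene span of 34112019 to 34122814. All 50 bases after this start were covered by a peak in all 4 libraries. A stretch of it, chr17:34119854-34119883 on the minus strand, bases 18 to 47 after the start, is shown because it holds the only match to the m6A consensus in those 50 bases; capitals mark the match.
Brd2: cctcgcagccaaGAACCtttcgcccgcccc
The consensus searched on the transcript strand was A, G or T, then A or G, then A and C, then A, C or T. It occurred in the first 50 bases of 17871 of 32851 RefSeq start windows (54.4%), so the match is a description and not a mapped site. Such windows were at hand for 41 of the 58 members, and peaks of 1 further gene, Smarcd3, reached one. Its peaks in innervated 1, innervated 2 and denervated 1 ended exactly at the annotated start at 24602002 and covered the 50 bases after it, which held 0 matches.

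PHD fingers read the methylation state of histone tails, and 9 of 22 Phf genes carried peaks, 7 of them in all 4 libraries. Phf3, which binds the elongating polymerase, had 6, 5, 6 and 6 peaks in 4 regions, all called in all 4 libraries. Phf12, a corepressor subunit of Sin3 complexes, had 6, 4, 5 and 4 peaks. Phf13 and Phf23, which bind the active promoter mark, Phf20 and Phf20l1, readers of methylated lysine, and Phf7, known from male germ cells, completed the 7. Phf7 had its region of all 4 libraries close to the 5′ end, at 6.90% of the span. Phf2, a demethylase by its JmjC domain, had 3 peaks in denervated 1 and none elsewhere, at a mean best percentile of 19.0. Phf21a, a subunit of the LSD1 corepressor complex, had 1 peak in innervated 2 and in denervated 1. The 13 Phf genes without a peak were Phf1, Phf5a, Phf6, Phf8, Phf10, Phf11a, Phf11b, Phf11c, Phf11d, Phf14, Phf19, Phf21b and Phf24.

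Acetyltransferases named Kat had 4 of 8 genes with a peak. Kat6a and Kat6b, the paralogous MOZ and MORF enzymes, were called throughout with 6, 5, 5 and 4 and with 8, 6, 6 and 5 peaks. In both genes the innervated libraries had as many peaks as the denervated ones or more, and the groups touched at 5 and at 6 peaks. In Kat6b 4 of the 5 regions called in all 4 libraries followed each other near the 3′ end, between 21668336 and 21671131 on chromosome 14. The fifth, chr14:21517034-21517433, lay near the 5′ end at 10.4% of the span, and Kat6a also held a region at 3.42%. Kat2a (GCN5) had 1 peak in innervated 1 and in denervated 1. Kat5 (TIP60), the catalytic subunit of a DNA repair and transcription complex, had 2 peaks in denervated 2, at the low percentile of 0.874. Kat2b, Kat7 and Kat8 had no peak, and Kat14 was listed under its older name Csrp2bp with 3, 3, 4 and 5 peaks.

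Asxl1 and Asxl2, scaffolds of a deubiquitinase that removes the Polycomb mark from histone H2A, were both called in all 4 libraries, while Asxl3 had no peak. Asxl1 had 6, 6, 7 and 4 peaks within the 3′ part of the gene and Asxl2 had 3 peaks in each library. The Ing genes, whose PHD fingers tie acetyltransferase and deacetylase complexes to the active promoter mark, had 3 of 5 with a peak. Ing1 had 2, 2, 1 and 1 peaks in 1 region called in all 4 libraries. Ing2 (2, 1, 0 and 1 peaks) and Ing5 (2, 2, 0 and 2) were both missed in denervated 1 alone, and Ing3 and Ing4 had no peak. Of the Ing genes 3, 3, 1 and 3 were therefore called in the 4 libraries in order.

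**Figure D4:**
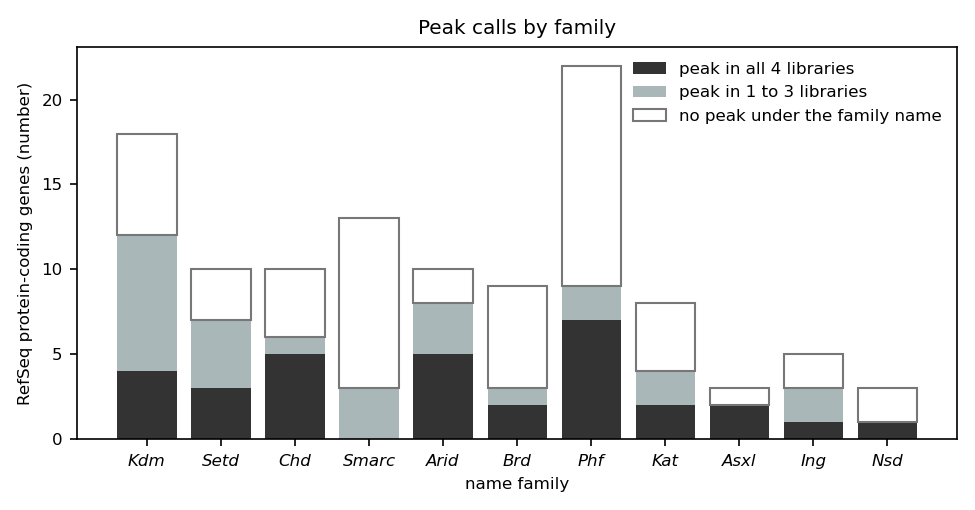
Number of RefSeq protein-coding genes in each of the 11 name families (bar height), split into genes with a peak in all 4 libraries (dark), in 1 to 3 libraries (light) and with no peak under the family name (open; Kat14 and Nsd3, listed under older names, count there). The Phf and Kdm families are the largest, and Smarc is the family with the smallest called share and no dark part.

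Over the 11 families, 58 of 111 protein-coding genes (52.3%) carried a peak, against 5728 of 21789 other protein-coding genes (26.3%). The other figure includes genes that muscle does not express, since the table is not restricted by expression. Recurrence varied among the families: all members called in all 4 libraries in Asxl and Nsd, 5 of 6 in Chd, 7 of 9 in Phf and 5 of 8 in Arid, but 4 of 12 in Kdm, 1 of 3 in Ing and 0 of 3 in Smarc. The families hold 1 to 12 members each, so these shares are a description.

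Peaks of the members were wider than those of other genes in each library, with medians of 300, 300, 299 and 350 bases against 249, 250, 250 and 250. The group means of the medians were 300 ± 0.354 and 324 ± 36.1 bases (SD, n = 2; exact permutation p = 1), and the higher denervated mean rested on denervated 2. Without denervated 2 the difference between the groups was -1.25 bases. Kat, Asxl, Chd and Nsd peaks had medians of 350 bases or more (400, 350, 350 and 551), and Brd peaks had the shortest median, 200 bases. Spliced peaks, with blocks in more than 1 exon, made up 11.8, 19.1, 14.9 and 19.9% of member peaks, against 11.5, 12.4, 11.5 and 14.7% of other peaks. The group means of the members, 15.4 ± 5.14 and 17.4 ± 3.50% (SD, n = 2), differed by less than the spread between libraries (exact permutation p = 0.667).

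The place of the peaks along the gene was like that of other genes. The median place was 84.8, 83.9, 85.5 and 84.2% of the span in the 4 libraries, against 84.5, 85.4, 84.8 and 83.1%. The group means were 84.3 ± 0.599 and 84.9 ± 0.881% (SD, n = 2; exact permutation p = 0.667). The last 10% of the span held 37.5, 39.5, 40.4 and 37.5% of member peaks and 40.9, 41.9, 41.0 and 38.4% of other peaks, so members were slightly lower in each library. Of the regions called in all 4 libraries, 34 of 77 (44.2%) lay in the last 10%, in 19 genes, against 1727 of 4449 (38.8%), so regions and peaks gave opposite orders. By family, with peaks pooled over the 4 lists, the last 10% held 71.4% of 49 Kat and 57.1% of 35 Asxl peaks. It held 10.3% of 87 Setd peaks and 0% of 16 Ing and 7 Smarc peaks. A site called in several lists counts more than once here. Kat6a and Kat6b gave 20 and 25 of the Kat peaks and Setd1b 35 of the Setd peaks. These shares therefore describe few genes and are not a result about the families. Since introns are part of the span, no position within the mature transcript or its UTRs follows from these values.

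By the authors' score, member peaks ranked near those of other genes in innervated libraries and lower in denervated ones. The members' median percentile was 51.9 and 50.2 in innervated and 43.2 and 47.5 in denervated libraries, against 49.7 to 50.3 for other genes. The group means of the members were 51.0 ± 1.20 and 45.4 ± 3.01 (SD, n = 2), with all denervated below all innervated values. The exact permutation p was 0.333, the smallest that 2 against 2 can give. Scores were often shared: in the 4 libraries 18 of 35, 22 of 40, 12 of 36 and 19 of 35 members with at least 2 peaks had a single score for all of them. These shares, 51.4, 55.0, 33.3 and 54.3%, stood below those of other genes in every library (62.5, 60.5, 56.1 and 70.3%). Members carried more peaks per called gene, and more peaks leave more room for differing scores. The part of this in the lower shares was not tested. Where the peaks of a gene share a score, the rank belongs in part to the gene. The members called in 1 library had a median best percentile of 22.3, those in 2 libraries 22.8, in 3 libraries 47.8 and in all 4 libraries 54.2. For other genes the same medians were 35.1, 42.0, 44.9 and 55.4, in the same order.

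Of 87 genes outside the name rule that work with these proteins, 52 carried a peak, beside 26.3% of protein-coding genes outside the families. Of those 52, 23 (44.2%) were called in all 4 libraries, beside 48.8% of other called genes. Denervated only were 0 and innervated only was 1, beside backgrounds of 3.42 and 3.17%. These group-only counts give no result about the partner genes. SWI/SNF partners had 7 of 13 with a peak, 4 in all 4 libraries (Bcl7a, Bcl7b, Bicra and Bicral). Genes of the NuRD, ISWI and INO80 complexes had 8 of 23, 4 in all 4 libraries (Mbd3, Gatad2a, Bptf and Srcap). In that list the deacetylases Hdac1 and Hdac2, like the NuRD ATPases above, had no peak. The innervated-only gene was Atrx, a remodeller that deposits a histone variant in heterochromatin. Other bromodomain genes had 11 of 14, JmjC genes not named Kdm 10 of 11, SET-domain and other methyltransferases 9 of 16, and Polycomb and deubiquitinase partners 7 of 10. Called throughout were 5, 2, 4 and 4 of these, among them Ash1l, Jarid2, Dot1l and Hcfc1.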

How the data were processed

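Libraries of m6A-captured RNA and of input RNA were made with a strand-preserving total RNA kit, per the labels' protocols. The authors deposited 4 peak lists on mm10, 1 per IP library and not pooled, with positions, strand, blocks, gene names and a column named score per the file headers. Score values ran from 0 to at most 0.023; not given in the sources used here are the peak caller, its threshold and the meaning of the score. Per the submitters' processing notes, STAR 2.4.2a and ChIPseeker were used. Peaks were ranked by score inside each list, and a higher percentile means a smaller score; that small means strong is uncertain.

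Peaks of the 4 lists sharing at least 1 block base on a strand were linked into regions with Python 3.11.15, a step tested on simulated data. The denervated-only class required a call in each denervated library and in no innervated one; the innervated-only class was the reverse. Place was taken from RefSeq gene spans of GRCm38.p6. Differences between group means were tested over libraries by exact permutation, two-sided (SciPy 1.17.1). The members and gene lists were chosen with earlier results of these data known. All members may be named; per-library values are given for group-only calls, members called throughout that hold a group-only region, the 10 members with the most regions called in all 4 libraries and a set of 16 well-known genes, and other values were added after they were seen. Alternatives changed the scores kept, the number of peaks per list, the overlap rule, the joining of peaks and the libraries; peak sequences were not analysed here. The values of 1 member are not reported here.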

Additional observations from a re-analysis of the deposited data

How the results depend on the processing

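The 10 results compared were recomputed in 85 alternative settings, of which 11 reversed and 25 moved. The other 49 did not reverse a direction or move a value beyond the limit set for it. Their sizes differed (width was 0.750 bases with introns included, against 24.2). For group-only results the limit applied to the count, so the genes behind an unchanged count could differ. With the largest scores the denervated-only regions stayed at 5, but those of Arid4a and Chd8 were lost and regions of Phf12 were gained. Part of the 49 was fixed in advance. Members called per library differed by 0 between the groups, so no setting could count as reversed, though the values ran from -3.50 to 3.50. The replicate block returns the same differences by construction. The share of members called in all 4 libraries was 23.1% when each list was cut to its 50% of largest scores and 35.1% with the smallest. Its excess over other genes (6.4 points) was -20.3 points in the middle class of gene span length, a setting chosen after seeing the data, and 0.820 points among genes called in 2 or more libraries. Denervated minus innervated peaks per called member was -0.0115 with the largest scores, -0.197 with the smallest and -0.0154 with equal numbers of peaks per list. Width gave -0.250 bases with the smallest scores. Place gave -9.25 points with the largest scores and -0.223 with equal numbers. Denervated-only members were 0 with the smallest scores and 1 with equal numbers, and innervated-only members 2 with the largest (Brd1 and Ing5) and 1 with the smallest (Kdm7a). Denervated-only regions were 2 with the smallest scores and 9 with reciprocal overlap of at least 50%. Innervated-only regions were 6, 2, 0 and 7 with the largest scores, the smallest, equal numbers and reciprocal overlap. A gene whose peaks stand on 1 side of the 50% limit loses its call on the other by construction; the cause of the other shifts was not tested.

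Leaving out each library in turn gave -0.0813 to 0.0894 for peaks per called member, -1.25 to 49.8 bases for width and -0.112 to 1.13 points for place. It loosens the group-only definition, so denervated-only members were 3 to 5, innervated-only members 0 to 5, denervated-only regions 12 to 19 and innervated-only regions 8 to 15. Denervated-only members were 5 without denervated 2 and 4 without innervated 2. Innervated-only members were 5 without denervated 1, 4 without denervated 2 and 2 without innervated 1.

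The labels do not say whether a shared number marks an animal. In peaks per gene, the correlation of deviations of same-numbered libraries was 0.0144 over 5987 genes. That value rests on a single difference between libraries in each group and on counts of called peaks. It therefore cannot decide whether the libraries are paired. With a replicate block the differences were 0 called members, 0.00401 peaks, 24.2 bases and 0.511 points (smallest exact sign-flip permutation p 0.5). These equal the differences without the block by construction, since every number occurs in both groups. The block therefore could not change a direction. Classes by protein length and place along exons, both planned, were not run because no protein or exon table was used here. The unknown depth limits every missing call.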
